A study of Mus musculus with 16 samples.

Results

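The Reg family genes examined here are Reg1, Reg2, Reg3a, Reg3b, Reg3d and Reg3g of the mouse, taken by gene symbol from a table of 15156 genes measured in whole pancreas after repeated pancreatitis. All 6 were found, and all 6 were among the 14220 genes tested. The 16 libraries came from 4 genotypes with 4 animals each. DMC mice carried floxed Daxx and floxed Men1 alleles (fl/fl for both) with Pdx1-Cre, MC mice carried Men1 fl/fl with Pdx1-Cre, DC mice carried Daxx fl/fl with Pdx1-Cre, and WT mice were wild type. Every animal, WT included, was 6 to 10 weeks old and had received caerulein, a peptide that acts like cholecystokinin and drives acinar secretion to the point of injury. The dose was 50 ug/kg in 4 hourly injections, given on 3 days a week for 3 weeks, and tissue was taken 5 days after the last treatment. Pdx1-Cre acts in cells of the pancreatic epithelium, so other cells of the organ keep both genes, and no Cre transgene is named for WT. Pancreas without caerulein was not analysed here.

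Reg genes encode small secreted proteins with a C-type lectin fold. Pancreatic acinar cells make them, and their transcripts rise strongly when the pancreas is injured or regenerates. REG1-type proteins were first described in regenerating islets and in pancreatic stones. REG3-type proteins include pancreatitis-associated protein, the product of Reg3b, and the bactericidal lectin of the gut encoded by Reg3g. Signals of the interleukin-6 and interleukin-22 families, which act through STAT3, are known inducers of Reg3 genes, and EXTL3 has been proposed as a Reg receptor.

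The members lie side by side on chromosome 6, and no other gene is annotated within their span from 78370657 to 78468872 (GRCm38). In chromosomal order they are Reg3b (ENSMUSG00000071356.7, 78370657 to 78373466), Reg3d (ENSMUSG00000068341.8, 78375874 to 78378865), Reg3a (ENSMUSG00000079516.2, 78380709 to 78383827), Reg2 (ENSMUSG00000023140.4, 78395623 to 78408106), Reg1 (ENSMUSG00000059654.7, 78422711 to 78428667) and Reg3g (ENSMUSG00000030017.2, 78466269 to 78468872). Reg3d and Reg3g are on the minus strand and the other members are on the plus strand. The coding sequences of Reg1 and Reg2 were 78.8% identical and those of Reg3b and Reg3g 76.0%. Between the annotated transcripts of any pair of members, 0 windows of 50 bases were shared. The read length is not given in the sources used here.

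Because the members varied together between animals, as described further on, the sequence before each start site is shown. Each line holds the 140 bases upstream of the RefSeq start site, 5′ to 3′ in the direction of transcription (RefSeq, GRCm38.p6). Capitals mark TATAAA, the TATA box, and TTCNNNGAA, the palindrome of STAT type.
Reg1 (chr6:78425843-78425982, plus strand): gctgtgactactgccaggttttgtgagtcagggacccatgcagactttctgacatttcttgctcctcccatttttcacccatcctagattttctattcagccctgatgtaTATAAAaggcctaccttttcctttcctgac
Reg2 (chr6:78405015-78405154, plus strand): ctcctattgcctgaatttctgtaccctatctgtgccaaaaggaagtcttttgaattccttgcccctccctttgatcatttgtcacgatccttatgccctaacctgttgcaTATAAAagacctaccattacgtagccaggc
Reg3d (chr6:78378866-78379005, minus strand): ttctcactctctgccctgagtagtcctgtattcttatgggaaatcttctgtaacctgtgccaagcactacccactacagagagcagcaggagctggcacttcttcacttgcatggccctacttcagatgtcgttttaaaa
Reg3a (chr6:78380569-78380708, plus strand): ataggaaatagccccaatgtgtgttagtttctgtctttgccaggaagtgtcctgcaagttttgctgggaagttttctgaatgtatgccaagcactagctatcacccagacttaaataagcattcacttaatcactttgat
Reg3b (chr6:78370745-78370884, plus strand): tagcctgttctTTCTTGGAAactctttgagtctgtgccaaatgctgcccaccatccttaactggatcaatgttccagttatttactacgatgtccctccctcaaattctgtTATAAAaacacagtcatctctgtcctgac
Reg3g (chr6:78468875-78469014, minus strand): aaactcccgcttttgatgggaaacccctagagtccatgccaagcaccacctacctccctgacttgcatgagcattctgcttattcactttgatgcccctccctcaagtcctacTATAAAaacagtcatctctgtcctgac
For Reg1, Reg2 and Reg3b the RefSeq start lies inside the longer GENCODE gene given above. TATAAA on either strand was found in 4 of 6 members, at -30 in Reg1 and Reg2, at -29 in Reg3b and at -27 in Reg3g, counted from the start site. Of all 32851 promoters, 7.21% held it in a window of the same length. TTCNNNGAA was found in Reg3b at -129 only, against 3.75% of all promoters. When the window was extended to 250 bases, Reg3d also held it, at -238, against 7.02% of all promoters. The E-box CANNTG, also a palindrome, was found in 3 members in the 140 bases (45.4% of all promoters) and in 6 in the 250 bases (66.2%). TATAAA was added to the search after the values had been seen. The windows of Reg3b and Reg3g were 69.0% identical and shared their last 20 bases before the start site, the longest shared run of any pair, while the other pairs were 36.2% to 60.1% identical. A match describes letters in a window and does not show a bound site.

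Each library held between 13481063 and 23728309 reads, of which the members took 1.12% to 2.90%. Men1 had 157 to 178 normalized counts in DMC, 116 to 147 in MC, 397 to 541 in DC and 331 to 459 in WT, and it fell in both Men1 fl/fl groups (limma adjusted p = 0.00071 for DMC and 6.2e-05 for MC, each against WT). Daxx had 160 to 225 in DMC, 223 to 281 in MC, 212 to 245 in DC and 195 to 346 in WT, and its difference did not pass the test in DMC (limma adjusted p = 0.193) or DC (limma adjusted p = 0.683). Acinar enzyme genes, the markers of the labelled organ, summed to between 5534219 and 18599859 normalized counts in every library. WT replicates 2 and 3 stood apart in lymphocyte genes, with a mean log2 level of B and plasma cell genes of 8.97 and 9.87 against 5.00 and 7.16 in the other WT animals, so results that depend on them are given without them too. Genes on the Y chromosome were at a mean log2 level of 9.14 or more in 2 DMC, 2 MC, 1 DC and 2 WT libraries and at 1.88 or less in the others, and the labels give no sex.

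Reg1 was by far the most abundant member and stood among the 10th to 17th most abundant genes of each library. Per kilobase of its longest coding transcript, Reg1 averaged 349470 ± 151386 normalized counts in DMC, 321236 ± 32003 in MC, 234528 ± 57404 in DC and 378964 ± 113686 in WT (SD, n = 4 each). Reg2 came next, at 63477 ± 72849 per kilobase in DMC, 94516 ± 13757 in MC, 8982 ± 2342 in DC and 34632 ± 21049 in WT. On the same per-kilobase scale Reg1 exceeded every other member in 16 of 16 libraries. Reg3b followed, above Reg3a and Reg3g in 16 of 16 libraries and above Reg3d in 14. The order of the last members was not fixed, since Reg3d exceeded Reg3g in 11 of 16 libraries and Reg3a exceeded Reg3g in 7. All levels from here on are normalized counts, gene counts divided by the size factor of the library, and are not divided by length. Differences are on the log2 scale of the normalized count plus 1, given as estimate ± SE, and a call is an adjusted p under 0.05.

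Reg1, the founding pancreatic member of the family, differed least between genotypes. It had 250492, 195636, 509257 and 308299 normalized counts in DMC replicates 1 to 4, 262454, 269299, 308495 and 321341 in MC, 149555, 249690, 189395 and 259412 in DC, and 432140, 322177, 205885 and 410133 in WT. DMC replicate 3 was the highest of all libraries and DC replicate 1 the lowest. All 4 MC libraries lay above all 4 DC libraries, while DMC, MC and DC each overlapped WT. The difference of MC from DC did not pass (limma adjusted p = 0.613), and 4.65% of all genes lay wholly higher there. The log2 difference of Reg1 was -0.15 ± 0.37 in DMC, -0.19 ± 0.37 in MC and -0.67 ± 0.37 in DC (estimate ± SE, each against WT), with limma adjusted p = 0.897, 0.879 and 0.519. Under quantile scaling these differences turned to 0.37, 0.45 and 0.11.

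Reg2, the closest relative of Reg1 and studied in mice as a factor induced in injured acinar cells and islets, had the widest range of all members over the libraries. Its normalized counts were 24003, 10941, 120085 and 22198 in DMC, 69803, 61274, 77350 and 55464 in MC, 4885, 8185, 4934 and 7073 in DC, and 30463, 33330, 2222 and 30677 in WT. MC libraries were uniformly high and DC libraries uniformly low, DMC replicate 3 stood far above the other DMC animals, and WT replicate 3 was far below the other WT animals. Reg2 in MC overlapped neither WT nor DC, and DMC did not overlap DC. Shares of all genes lying wholly higher were 4.16% for MC over WT, 4.65% for MC over DC and 3.55% for DMC over DC. Over WT, the log2 difference was 2.01 ± 0.76 in MC (4.03-fold, limma adjusted p = 0.276), and it did not pass. It was 0.83 ± 0.76 in DMC (limma adjusted p = 0.685) and -1.41 ± 0.76 in DC (limma adjusted p = 0.513), neither of which passed. Without WT replicate 3 the differences from WT were -0.12 in DMC, 1.06 in MC and -2.36 in DC, and without WT replicates 2 and 3 they were -0.08, 1.1 and -2.32. Without DMC replicate 3 the DMC difference was 0.15.

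Reg3d had the steadiest levels within a genotype among the Reg3 genes. It is a mouse Reg3 gene found in pancreas. Normalized counts of Reg3d were 3551, 2788, 10678 and 4062 in DMC, 7177, 7164, 6652 and 6336 in MC, 2169, 3806, 2860 and 3963 in DC, and 7303, 6054, 3066 and 7114 in WT. All MC libraries exceeded all DC libraries, although the difference did not pass (limma adjusted p = 0.138) and 4.65% of all genes lay wholly higher there. WT replicate 3 fell within the DC range, and 3 of the 4 DMC libraries lay far below DMC replicate 3. The largest difference from WT was that of DC, -0.84 ± 0.35 on the log2 scale (limma adjusted p = 0.364), which ranged from -1.21 to -0.42 over the alternatives run.

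Reg3a, a Reg3 gene of pancreas and intestine, varied much more between animals. Its normalized counts were 2173, 1294, 6498 and 1435 in DMC, 4143, 3135, 2501 and 3450 in MC, 563.1, 1556, 1025 and 1550 in DC, and 7712, 3777, 665.7 and 3076 in WT. Again MC lay wholly above DC, whereas the WT libraries spread over nearly the whole range of the experiment. The difference of MC from DC did not pass (limma adjusted p = 0.253), and 4.65% of all genes lay wholly higher there. In DC the difference from WT was -1.36 ± 0.61 on the log2 scale (limma adjusted p = 0.411), and in MC it was 0.23 ± 0.61 (limma adjusted p = 0.913), a direction that turned to -0.21 with edgeR, -0.46 without WT replicate 3 and -0.58 without WT replicates 2 and 3. The DC difference was -0.86 without WT replicate 1, -2.04 without WT replicate 3 and -2.16 without WT replicates 2 and 3.

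Reg3b, which encodes pancreatitis-associated protein, was higher in both Men1 fl/fl groups than in DC, library by library. It had 15563, 12200, 60765 and 20217 normalized counts in DMC, 26221, 15308, 15455 and 12942 in MC, 2398, 5298, 3089 and 5578 in DC, and 31800, 11788, 2098 and 5899 in WT. Every DMC and every MC library exceeded every DC library, while WT ranged from the lowest value of all 16 libraries to the second highest. Neither difference from DC passed (limma adjusted p = 0.107 for DMC and 0.132 for MC). Of all genes, 3.55% lay wholly higher in DMC than in DC and 4.65% in MC than in DC. Against WT, the log2 difference was 1.41 ± 0.65 in DMC (limma adjusted p = 0.381), 1.03 ± 0.65 in MC (limma adjusted p = 0.533) and -1.101 ± 0.647 in DC (limma adjusted p = 0.546). These values moved with single WT animals. Without WT replicate 1 they were 2.06 in DMC, 1.68 in MC and -0.45 in DC, without WT replicate 3 they were 0.75, 0.37 and -1.76, and without WT replicates 2 and 3 they were 0.68, 0.30 and -1.83. Without DMC replicate 3 the DMC difference was 0.92.

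Reg3g, the gene of the bactericidal gut lectin, had its highest mean in DMC. The normalized counts were 7915, 3197, 11864 and 4750 in DMC, 4382, 2022, 1865 and 2364 in MC, 488.4, 1593, 1130 and 1113 in DC, and 9672, 4038, 566.2 and 862.0 in WT. All DMC libraries lay above all DC libraries, 3 of 4 DMC libraries above all MC libraries, and WT again spread from near the bottom to near the top. The difference of DMC from DC did not pass (limma adjusted p = 0.118), and 3.55% of all genes lay wholly higher there. The log2 difference from WT was 1.56 ± 0.71 in DMC (limma adjusted p = 0.376), 0.26 ± 0.71 in MC (limma adjusted p = 0.914) and -1.07 ± 0.71 in DC (limma adjusted p = 0.606). Without WT replicate 1 these were 2.29 in DMC, 0.99 in MC and -0.33 in DC, and without WT replicate 3 they were 0.93, -0.37 and -1.70. Without WT replicates 2 and 3 they were 1.09, -0.21 and -1.54, and without WT replicate 4 the MC difference was -0.17. With edgeR the MC difference was -0.52.

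**Figure D1:**
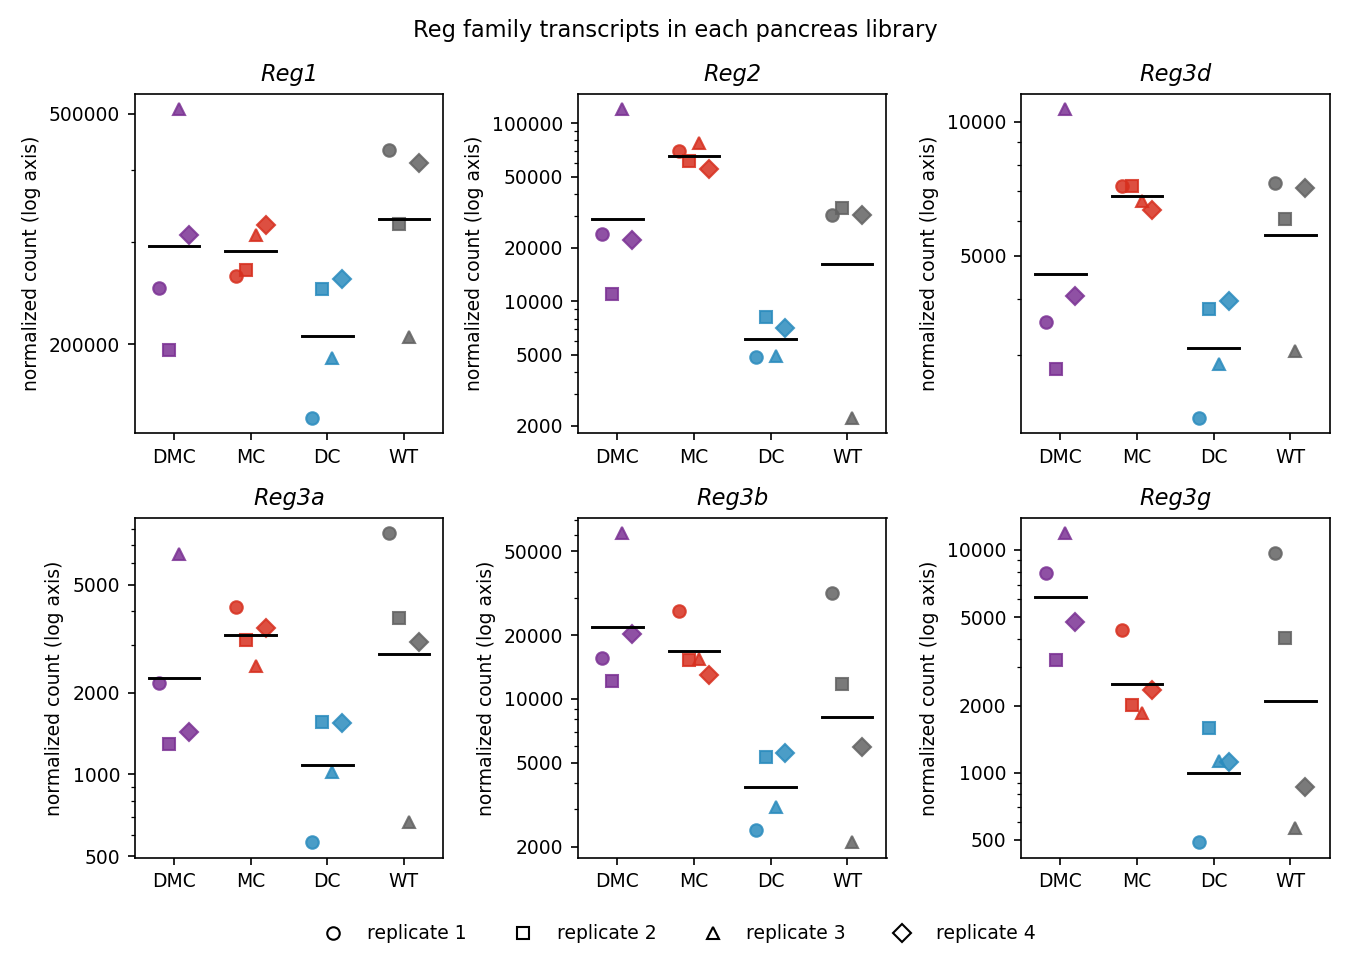
Normalized counts (log axis) of each Reg gene in the 16 libraries, by genotype, with 1 point per animal, the marker shape giving the replicate number and the line the mean of the log2 values. MC libraries sit close together and above all DC libraries in all 6 panels, whereas WT is wide, with Reg2 between 2222 and 33330. Of all tested genes, 4.65% lie wholly higher in MC than in DC.

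No Reg gene passed the test between any mutant group and WT. In DMC against WT, 0 of 6 members were called by limma, edgeR or DESeq2, 2 had an unadjusted limma p under 0.05, and limma called 0.788% of all tested genes, with 12.5% at an unadjusted p under 0.05. All 6 overlapped between DMC and WT, where 5.19% of all genes lay wholly higher and 3.02% wholly lower. In MC against WT, 0 of 6 were called by all 3 tools, 1 had an unadjusted p under 0.05, against 12.7% of all genes, and 0.781% of all genes were called. MC and WT did not overlap for 1 member, Reg2, where 4.16% of all genes lay wholly higher. Its exact permutation p was 0.0286, and 0.103 after adjustment over all members and pairs of groups. In DC against WT, 0 of 6 were called by all 3 tools, 2 had an unadjusted p under 0.05 against 11.7% of all genes, and 0.0211% of all genes were called. The 6 differences of DC against WT were all below 0, as were 52.7% of all genes, although Reg1 turned to 0.11 under quantile scaling. Their median was -1.09 against -0.015 for all genes. The members varied together between animals, as given below, so they are not independent results in this or the other comparisons. Every member overlapped between DC and WT, where 3.72% of all genes lay wholly higher and 1.77% wholly lower. These comparisons share the same 4 WT libraries. In bulk tissue, fewer cells of a type and less RNA per cell cannot be told apart, so each difference is one of whole pancreas. With 4 animals a group the intervals were wide, and the 95% interval of Reg2 in DC against WT ran from -3.02 to 0.21 and that of Reg3g from -2.57 to 0.43.

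DMC against MC asks whether floxed Daxx changes the family when Men1 is already floxed. Here 0 of 6 members were called by limma, edgeR or DESeq2 and 0 had an unadjusted limma p under 0.05, while limma called 0.00703% of all genes and 5.57% had an unadjusted p under 0.05. The groups overlapped for all 6, where 2.14% of all genes lay wholly higher and 1.86% wholly lower. Reg3g had the largest positive difference, 1.30 ± 0.71 on the log2 scale, with an interval from -0.20 to 2.79 (limma adjusted p = 0.937). Reg2 had the largest negative one, -1.18 ± 0.76, with an interval from -2.79 to 0.44 (limma adjusted p = 0.950).

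DMC against DC asks what floxed Men1 changes when Daxx is already floxed. All 6 differences were above 0, as were 50.6% of all genes, with a median of 1.65 against 0.003, and 0 of 6 members were called by limma or edgeR. Limma called 0.534% of all genes here, and 3 members had an unadjusted p under 0.05 against 13.2% of all genes. DESeq2 called those 3, Reg2, Reg3b and Reg3g, and 345 of all 14220 genes. The same 3 did not overlap between DMC and DC, against 3.55% of all genes lying wholly higher. For each of the 3 the exact permutation p was 0.0286, and 0.103 after adjustment over all members and pairs of groups. Reg3g was higher by 2.63 ± 0.71 on the log2 scale (6.17-fold, limma adjusted p = 0.118), Reg3b by 2.51 ± 0.65 (5.71-fold, limma adjusted p = 0.107) and Reg2 by 2.24 ± 0.76 (4.73-fold, limma adjusted p = 0.224). Leaving out WT replicate 1 gave limma adjusted p = 0.0414 for Reg3b and 0.0415 for Reg3g, and leaving out WT replicate 3 gave 0.0345 for Reg3b and 0.0493 for Reg2. Without DMC replicate 3 the differences were smaller, at 1.56 for Reg2 and 2.02 for Reg3b. Over 30 alternatives the adjusted p ranged from 0.0115 to 0.258 for Reg3b, 0.0111 to 0.274 for Reg3g and 0.00404 to 0.455 for Reg2.

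MC against DC sets the single floxed genotypes beside each other, a comparison added after the values had been seen. Reg2 was higher in MC than in DC, by 3.42 ± 0.76 on the log2 scale (10.7-fold, 95% interval 1.81 to 5.04, limma adjusted p = 0.0374). Against WT, the Reg2 difference was 2.01 in MC and -1.41 in DC, and neither passed. In MC against DC, Reg2 was the 1 member of 6 that limma called, as edgeR and DESeq2 also did, against 1.37% of all genes. An unadjusted p under 0.05 was reached by 4 members, against 13.7% of all genes. All 6 members lay wholly higher in MC than in DC, against 4.65% of all genes. All 6 differences were above 0, as were 50.0% of all genes, and their median was 1.46 against 0.00. Since the members varied together between animals, the 6 are not independent results, and the shares of all genes do not measure how unusual they are together. Reg3b stood 2.13 ± 0.65 higher (limma adjusted p = 0.132), Reg3d 1.13 ± 0.35 (limma adjusted p = 0.138) and Reg3a 1.58 ± 0.61 (limma adjusted p = 0.253) on the log2 scale, none of which passed. Reg3g stood 1.33 ± 0.71 higher (limma adjusted p = 0.427) and Reg1 0.48 ± 0.37 (limma adjusted p = 0.613), which did not pass either. The exact permutation p was 0.0286 for each of the 6 members, and 0.103 after adjustment over all members and pairs of groups. The Reg2 call was lost when any 1 of the 8 MC and DC libraries was left out, with limma adjusted p of 0.0985, 0.0971, 0.0877 and 0.0675 without MC replicates 1 to 4 and 0.0613, 0.0810, 0.0984 and 0.0861 without DC replicates 1 to 4. The difference itself was 3.31 to 3.56 in these fits. With the level of Y-linked genes as a covariate the difference was 3.19 and the adjusted p 0.0554, and over 30 alternatives the adjusted p ranged from 0.0001 to 0.0985. Without DMC replicate 3, Reg3d was called as well (0.0339). With only MC and DC in the fit, Reg2, Reg3a, Reg3b and Reg3d were called, as were 268 of all 14220 genes.

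Both Men1 fl/fl groups were also set against both groups with intact Men1, averaging over the Daxx alleles, a contrast added after the values had been seen and sharing its libraries with those above. In the Men1 fl/fl groups Reg2 was higher by 2.13 ± 0.54 (4.37-fold, limma adjusted p = 0.0426) and Reg3b by 1.77 ± 0.46 (3.41-fold, limma adjusted p = 0.0474) on the log2 scale. These 2 of 6 members compare with 3.02% of all genes called, and 3 had an unadjusted p under 0.05 against 16.6%. Both calls were near the threshold. The Reg2 call was lost without any one of DMC replicates 1, 3 and 4, MC replicates 1 to 4 and DC replicates 2 to 4, with adjusted p from 0.0654 to 0.0840. The Reg3b call was lost without any one library other than WT replicate 1 and DMC replicate 2, with adjusted p from 0.0551 to 0.0919, and edgeR did not call it (0.0841). Without WT replicate 1, Reg3g was called too (0.0258). The same contrast for floxed Daxx called 0 of 6 members by limma, edgeR and DESeq2, with 3 at an unadjusted limma p under 0.05 against 9.23% of all genes, while limma called 0.0703% of all genes. Its largest difference relative to its error was that of Reg3d, -0.71 ± 0.25 (limma adjusted p = 0.371). For the interaction, which asks whether the Men1 difference depends on Daxx, 0 of 6 members were called by all 3 tools, 1 had an unadjusted p under 0.05, and limma called 0% of all genes (edgeR 0 genes, DESeq2 43, and 8.13% at an unadjusted limma p under 0.05). That member was Reg3g, at 2.37 ± 0.997 on the log2 scale (unadjusted p = 0.0307, limma adjusted p = 0.573).

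**Figure D2:**
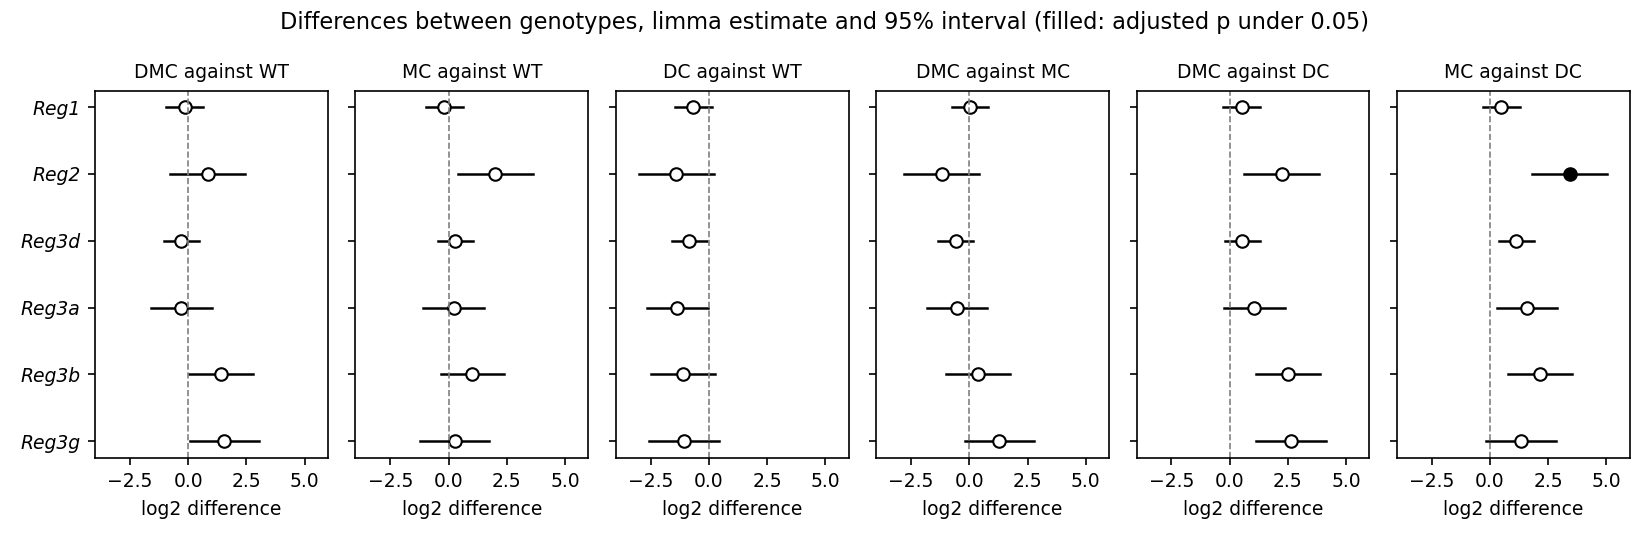
Log2 difference of each Reg gene (horizontal axis, the first-named genotype over the second) with its 95% interval from limma, 1 panel per comparison and filled points where the adjusted p is under 0.05. The only filled point is Reg2 in MC against DC, at 3.42, and the intervals of Reg2, Reg3a, Reg3b and Reg3g are much wider than those of Reg1 and Reg3d.

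Markers of the stomach gland moved with the Men1 genotype, as 5 of the 7 measured rose in DMC and 6 in MC, each against WT, where limma called 0.788% and 0.781% of all genes. Of 12 such genes 7 were in the table, and their sum was 3180 to 29768 normalized counts in DMC, 3661 to 30674 in MC, 111.2 to 740.6 in DC and 234.2 to 493.0 in WT. Cym, which encodes the gastric protease chymosin, had 427.2 to 4329 normalized counts in DMC, 768.3 to 9856 in MC, 0 to 2.201 in DC and 0 to 8.784 in WT. Over the 16 libraries the stomach gland level had r of 0.09 to 0.55 with the members, none past adjustment. It was 0.53 for Reg2 (rho = 0.44, permutation p = 0.0362 and 0.0873, adjusted 0.139 and 0.291) and 0.55 for Reg3b (rho = 0.48, permutation p = 0.0274 and 0.0619, adjusted 0.125 and 0.232). Within genotypes the sign was opposite, with r of -0.36 to -0.18 for the members, -0.24 for Reg2 and -0.21 for Reg3b. Of 19 genes of the small intestine 6 were in the table, summing to 391.9 to 730.1 in DMC, 330.2 to 726.9 in MC, 261.9 to 702.7 in DC and 207.5 to 2095 in WT. Of the 5 tested, limma called only Olfm4, a stem cell marker of the gut, higher in DMC (limma adjusted p = 0.0153) and MC (limma adjusted p = 0.0236) than in WT. In each of these comparisons 3 of the 5 were above 0, with a median of 0.38 in DMC and 0.18 in MC. The other 13 of the 19, among them the enterocyte genes Fabp1, Fabp2 and Alpi, were not analysed here. Islet genes summed to 39612 to 177491 in DMC, 20231 to 110947 in MC, 14884 to 103064 in DC and 11881 to 53870 in WT. For floxed Men1, the contrast in which Reg2 and Reg3b were called, 2 of 14 islet genes rose by limma, the secretory granule gene Scg2 and the prohormone convertase gene Pcsk1. EdgeR called 2 and DESeq2 4, and 7 had an unadjusted limma p under 0.05. Of all genes limma called 3.02% here, and 16.6% had an unadjusted p under 0.05. Of the islet genes 13 of 14 were above 0, with a median of 1.07 against -0.004 for all genes. The islet level had r of -0.05 to 0.31 with the members over the 16 libraries, none past adjustment. It was 0.31 for Reg2 (permutation p = 0.247, adjusted 0.397, 0.09 within genotypes). For Reg3b it was 0.23 (permutation p = 0.397, adjusted 0.518, -0.17 within genotypes). Scg2 averaged 5925 ± 3814 normalized counts in DMC, 4405 ± 2671 in MC, 1151 ± 1252 in DC and 1062 ± 663.7 in WT (SD, n = 4 each). The part of these cell types, and of sex, in the Reg differences was not tested beyond the Y-linked covariate above.

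Ratios between members within a library were compared as well, and none passed after adjustment. The ratio of Reg3g to Reg3a normalized counts was 3.64, 2.47, 1.83 and 3.31 in DMC replicates 1 to 4, 1.06, 0.645, 0.745 and 0.685 in MC, 0.867, 1.02, 1.1 and 0.718 in DC, and 1.25, 1.07, 0.850 and 0.280 in WT. Each DMC animal had more Reg3g than Reg3a counts by a factor that no animal of another genotype reached. On the log2 scale the ratio was higher in DMC by 1.82 over MC, 1.57 over DC and 1.85 over WT, each with an exact permutation p of 0.0286, the smallest possible, and 0.0804 after adjustment over all 90 ratio tests. Among all tested genes, the ratio to Reg3a lay wholly higher for 0.373% in DMC against MC, 0.0914% in DMC against DC and 0.246% in DMC against WT.

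The ratio of Reg3g to Reg3d was 1.11 to 2.23 in DMC, 0.280 to 0.611 in MC, 0.225 to 0.419 in DC and 0.121 to 1.32 in WT, so DMC lay above all MC and DC animals but overlapped WT. For Reg3b, the ratio to Reg3a was 7.16 to 14.1 in DMC, 3.75 to 6.33 in MC, 3.01 to 4.26 in DC and 1.92 to 4.12 in WT. The ratio of Reg3b to Reg3d was 4.38 to 5.69 in DMC, 2.04 to 3.65 in MC, 1.08 to 1.41 in DC and 0.684 to 4.35 in WT. Neither Reg3b ratio in DMC overlapped that of any other genotype, although WT replicate 1, at 4.35, came close for the ratio to Reg3d. The ratio to Reg3d lay wholly higher for 0.985% of all genes in DMC against MC, 0.204% in DMC against DC and 0.935% in DMC against WT. The ratio of Reg2 to Reg1 was 0.0559 to 0.236 in DMC, 0.173 to 0.266 in MC, 0.0260 to 0.0328 in DC and 0.0108 to 0.103 in WT. MC lay above all DC and all WT animals, and DMC above all DC animals, while DMC overlapped MC through replicate 3 and the other 3 DMC animals lay within the WT range. The ratio to Reg1 lay wholly higher for 0.549% of all genes in MC against DC, 4.56% in MC against WT and 0.366% in DMC against DC. The ratio of Reg1 to Reg3d was nearly constant in DC, at 65.5 to 69.0. The 15 pairs of members share members and libraries, and the adjusted p of each pair whose groups did not overlap was 0.0804.

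**Figure D3:**
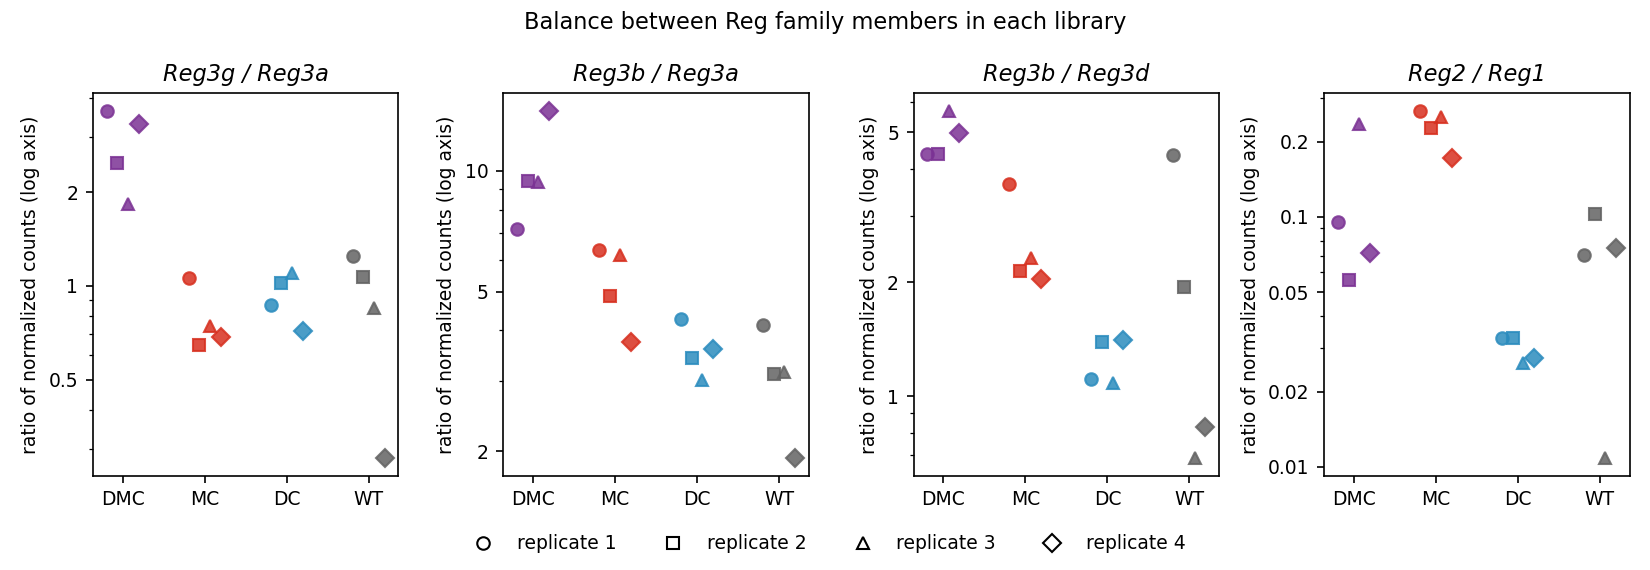
Ratio of normalized counts (log axis) between pairs of Reg genes in each library, by genotype, with 1 point per animal and the marker shape giving the replicate number. In the Reg3g to Reg3a panel the DMC points, 1.83 to 3.64, lie above all others, and in the Reg2 to Reg1 panel the DC points, 0.0260 to 0.0328, lie in a narrow band below all MC and DMC points.

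The spread between animals of a genotype was itself large for most members. The pooled within-genotype SD on the log2 scale was 1.22 for Reg2, 1.14 for Reg3g, 1.04 for Reg3b and 0.989 for Reg3a, larger than in 97.2%, 96.4%, 95.3% and 94.6% of all tested genes. Reg3d, at 0.556, and Reg1, at 0.430, exceeded 80.4% and 70.8%. The highest library held 54.1 times the lowest for Reg2 and 3.41 times for Reg1. The spread was uneven between genotypes, and by the coefficient of variation MC animals were the most alike for every member except Reg3g, which had 55.3% in DMC, 43.9% in MC, 41.9% in DC and 112% in WT. The coefficient of variation of Reg3d was 69.1% in DMC, 6.02% in MC, 26.3% in DC and 33.3% in WT, and that of Reg2 was 115%, 14.6%, 26.1% and 60.8% in the same order. DMC replicate 3 was the highest library for Reg1, Reg2, Reg3b, Reg3d and Reg3g, and WT replicate 1 for Reg3a. DC replicate 1 was the lowest for Reg1, Reg3a, Reg3d and Reg3g, and WT replicate 3 for Reg2 and Reg3b.

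The members rose and fell together from animal to animal. Pearson's r of the log2 values over the 16 libraries was 0.537 to 0.920 for the 15 pairs, with a median of 0.838, and Spearman's rho was 0.532 to 0.909. All 15 pairs passed a permutation test with 100000 resamples, with adjusted p over the pairs of 5e-05 to 0.0325 for r and 0.0001 to 0.0356 for rho. The closest pairs were Reg3a with Reg3d (r = 0.920, rho = 0.909, permutation p = 1e-05 for both, the smallest the resamples can give) and Reg3b with Reg3g (r = 0.916, rho = 0.900, permutation p = 2e-05 for both). Reg3b and Reg3g are also the pair with the longest run of shared upstream sequence, and they lie at opposite ends of the cluster. The windows of Reg3a and Reg3d, the pair with the highest r, were 43.5% identical, with a longest shared run of 12 bases. The part of upstream sequence or position in these relations was not tested. The weakest pair was Reg3d with Reg3g (r = 0.537, rho = 0.532, permutation p = 0.0325 and 0.0356).

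The relations also held within genotypes, where deviations from the genotype means had r of 0.590 to 0.947 and all 15 pairs passed. When the 2 libraries farthest from the median of the first-named member of a pair were left out, r was 0.253 to 0.897 and 11 pairs passed. The relations of Reg1 with Reg3b (r = 0.515), Reg1 with Reg3g (0.333), Reg2 with Reg3g (0.467) and Reg3d with Reg3g (0.253) then no longer passed. Reg3g followed the rest of the family least closely, with r = 0.744 to the mean of the other members against 0.942 for Reg3a.

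The level of acinar and ductal genes varied with some of the members over the libraries, and no relation of these lists with Reg3g passed adjustment. Lists and members gave 90 relations, and p-values were adjusted over them. The list of ductal and acinar-to-ductal metaplasia genes, which mark ducts and acinar cells that take on duct features, had r = 0.83 with Reg2 (rho = 0.77, permutation p = 0.0001 and 0.00083, adjusted 0.00450 and 0.0249, 0.77 without the 2 farthest libraries, 0.64 within genotypes). With Reg3b it had r = 0.75 (rho = 0.75, permutation p = 0.00082 and 0.00144, adjusted 0.0127 and 0.0259, 0.76 without the 2 farthest, 0.67 within genotypes). Acinar transcription factors had r = 0.83 with Reg3d (rho = 0.79, permutation p = 9e-05 and 0.00049, adjusted 0.00450 and 0.0220, 0.74 without the 2 farthest, 0.86 within genotypes). Acinar digestive enzymes had r = 0.70 with Reg3d (rho = 0.80, permutation p = 0.00186 and 0.00036, adjusted 0.0193 and 0.0220, 0.78 without the 2 farthest, 0.72 within genotypes). With Reg2 the enzymes had r = 0.46 (rho = 0.48, permutation p = 0.0735 and 0.0593, adjusted 0.220 and 0.232), which did not pass. Fibroblast and stellate cell genes ran the other way, with r = -0.74 for Reg3d (rho = -0.75, permutation p = 0.00099 and 0.00122, adjusted 0.0127 and 0.0259, -0.59 without the 2 farthest, -0.73 within genotypes).

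The same lists as sums describe the tissue of each genotype, and the sums were not tested. Acinar enzymes summed to 6868101 to 13789769 normalized counts in DMC, 6828151 to 11811021 in MC, 5534219 to 11697565 in DC and 9852708 to 18599859 in WT. Fibroblast genes summed to 25326 to 42875 in DMC, 33001 to 54154 in MC, 36613 to 74531 in DC and 24728 to 29394 in WT. In DC against WT, limma and edgeR called 0 of 12 fibroblast genes and DESeq2 called 4. There 9 of 12 had an unadjusted limma p under 0.05, against 11.7% of all genes, and the median was 0.66 against -0.015 for all genes. The other comparisons between genotypes had 0 to 3 of 12 at an unadjusted limma p under 0.05. Of 27 acinar enzyme genes in the table, limma called 1 in DMC against WT, where it called 0.788% of all genes. This was the chymotrypsin-like protease gene Ctrl, which was lower in DMC (-1.93, limma adjusted p = 0.0400). In that comparison 3 of 27 had an unadjusted limma p under 0.05, against 12.5% of all genes, edgeR called 1 and DESeq2 called 2. In MC and DC against WT, limma and edgeR called 0. There 3 in MC and 1 in DC had an unadjusted limma p under 0.05, against 12.7% and 11.7% of all genes, and DESeq2 called 2 and 0. Of 17 ductal and metaplasia genes, limma called 1 in MC against DC, where it called 1.37% of all genes. This was Prom1, the gene of the apical membrane protein prominin 1, higher in MC than in DC (1.71, limma adjusted p = 0.0237). Of the 17, 15 were above 0, with a median of 0.64. In that comparison 10 of 17 had an unadjusted limma p under 0.05, against 13.7% of all genes. There edgeR called 1 and DESeq2 called 4, Prom1, Cldn4, Cftr and Clu, named after their values were seen. Against WT, limma and edgeR called 0 of the 17 in MC and in DC, and DESeq2 called 0 in MC and Prom1 in DC. With the acinar enzyme level as a covariate, the Reg2 difference of MC over DC was 3.03 (limma adjusted p = 0.0334).

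No gene of the interleukin-6, interleukin-22 and STAT3 lists was called by limma between genotypes. In the same 6 comparisons limma called 0.00703% to 1.37% of all genes, and 5.57% to 13.7% had an unadjusted limma p under 0.05. Of 8 ligands of the interleukin-6 and interleukin-22 families, 5 were in the table and 4 were tested, and limma, edgeR and DESeq2 each called 0 in any of the 6 comparisons between genotypes, with 0 or 1 per comparison at an unadjusted limma p under 0.05. The most abundant, Clcf1, had 41.92 ± 8.504 normalized counts in DMC, 50.91 ± 13.38 in MC, 58.47 ± 19.09 in DC and 56.22 ± 27.39 in WT. Il6 and Il22 were not analysed here. All 11 receptors and kinases were tested and 0 were called by the 3 tools, with 0 to 3 per comparison at an unadjusted limma p under 0.05, and the shared receptor chain Il6st at 3299 ± 357.3 in DMC, 3591 ± 153.5 in MC, 3015 ± 564.2 in DC and 2939 ± 242.8 in WT. Stat3, with its 11 feedback and target genes, gave 0 of 12 by limma and edgeR in each comparison, with 0 to 3 at an unadjusted limma p under 0.05 and 1 called by DESeq2, Cebpb in DC against WT, named after its values were seen. Stat3 itself had 1418 ± 199.6 in DMC, 1520 ± 189.0 in MC, 1454 ± 157.1 in DC and 1400 ± 240.6 in WT (SD, n = 4 each). The median difference of the STAT3 list was -0.02 in DMC against DC and 0.10 in MC against DC. In MC against WT it was 0.35 against -0.017 for all genes, with 9 of 12 above 0. There 3 of 11 receptors and kinases and 3 of 12 genes of the STAT3 list had an unadjusted limma p under 0.05, against 12.7% of all genes. The level of the STAT3 list had r of -0.47 to -0.09 with the members, none past adjustment. Within genotypes r was -0.59 to -0.42, which was not tested. STAT3 activity, and its part in the Reg differences, was not tested. Ligand levels ran opposite to Reg1 (r = -0.69, rho = -0.49, permutation p = 0.00289 and 0.0593, adjusted 0.0236 and 0.232). Here r was -0.52 without the 2 farthest libraries and -0.77 within genotypes.

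Acute-phase and antimicrobial genes of epithelia, often induced with Reg3 genes, gave 1 limma call among 10 tested, in the 6 comparisons between genotypes. In these, limma called 0.00703% to 1.37% of all genes. Itih4, a plasma acute-phase protein gene, was higher in MC than in DC by 2.90 on the log2 scale (limma adjusted p = 0.0307), with 307.2 to 1478 normalized counts in MC and 60.53 to 120.3 in DC. Per comparison, 2 to 4 of the 10 had an unadjusted limma p under 0.05, against 5.57% to 13.7% of all genes. Those with 4 were DMC over DC (13.2%) and DC over WT (11.7%). EdgeR called 1 gene, in MC over DC. DESeq2 called Itih4 there and in DMC over DC, and Steap4, named after its values were seen, in DMC over WT. Medians ran from -0.06 in MC over DC (4 of 10 above 0) to 0.67 in DMC over WT (9 of 10). Nupr1, a stress gene of pancreatitis and the most abundant of the list, had 16401 ± 4668 in DMC, 14482 ± 1909 in MC, 9896 ± 2592 in DC and 17628 ± 7381 in WT, and none of its differences passed. Extl3, the proposed receptor, had 3390 ± 675.7 in DMC, 3950 ± 1175 in MC, 3378 ± 828.8 in DC and 4185 ± 646.3 in WT, with limma adjusted p of at least 0.597 in each mutant against WT.

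Genes whose pattern was most like the family were sought among 11304 genes whose mean reached 50 normalized counts, by Pearson's r with the mean of the standardized members over the 16 libraries. They are given as a description, without a p. The 8 closest were Slc12a8 (r = 0.932), a member of the cation-chloride cotransporter family, Cisd2 (0.918), an iron-sulfur protein of the endoplasmic reticulum, Rpl3 (0.910), a ribosomal protein, Cgref1 (0.905), Snap47 (0.900), a SNARE protein, Nceh1 (0.899), a cholesterol ester hydrolase, Arhgef16 (0.897) and Igsf11 (0.895), an adhesion protein. Slc12a8 averaged 808.5 ± 245.4 normalized counts in DMC, 867.6 ± 72.74 in MC, 590.2 ± 64.25 in DC and 793.4 ± 190.9 in WT (SD, n = 4 each). Among the most opposite were Lrch1 (-0.903), Hebp1 (-0.881), a heme-binding protein, and Cblb (-0.866), a ubiquitin ligase.

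**Figure D4:**
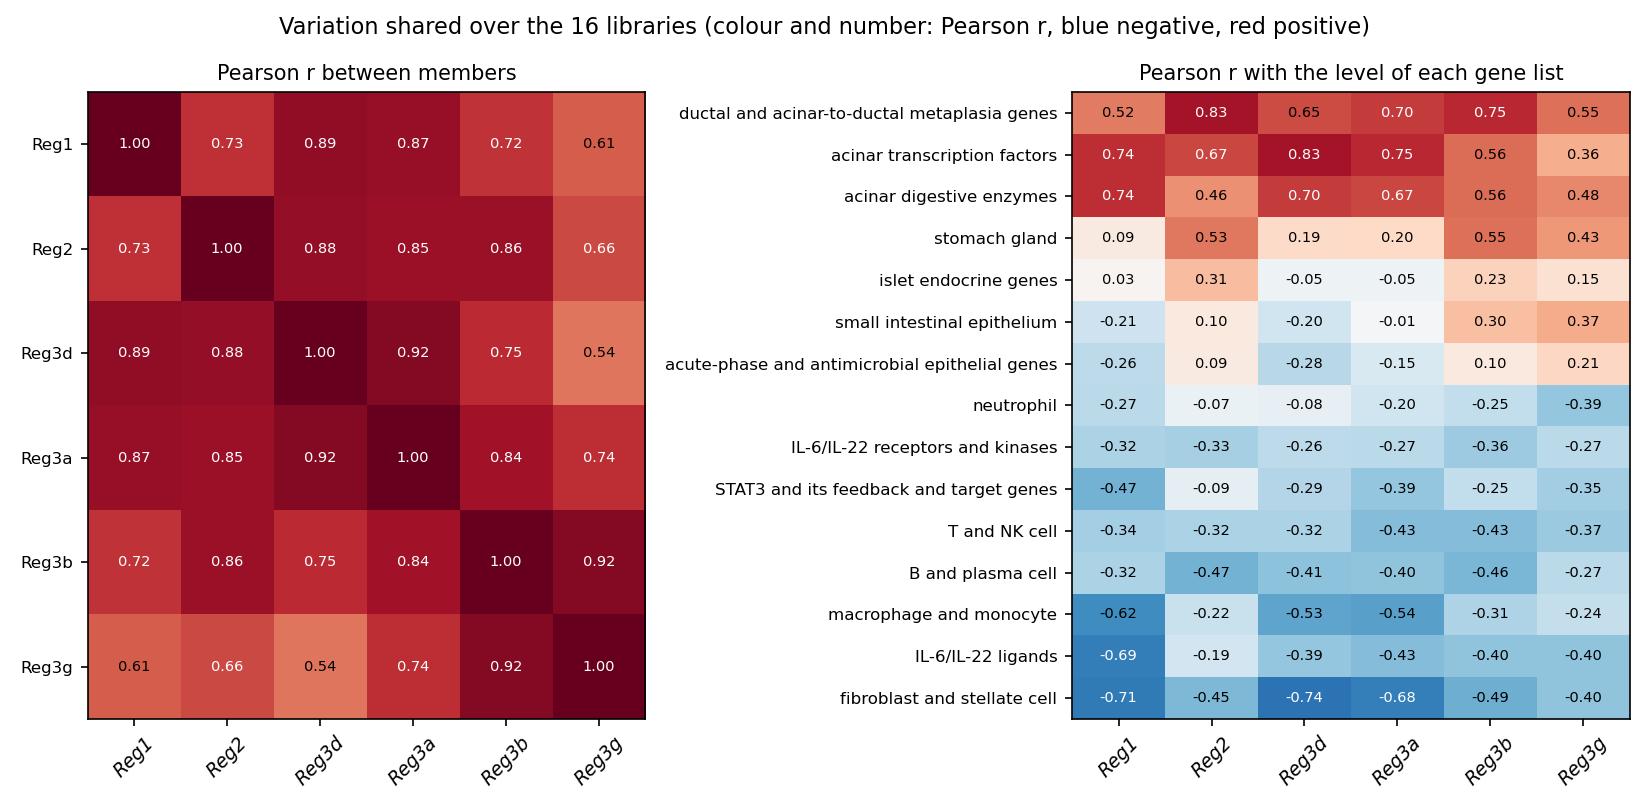
Pearson's r over the 16 libraries between Reg genes (left) and between each Reg gene and the mean log2 level of each gene list (right), with red for positive and blue for negative r and the value printed in each cell. All pairs of members are positive, from 0.54 to 0.92, the ductal and acinar lists stand at the top of the right panel and the fibroblast list, from -0.74 to -0.40, at the bottom.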

How the data were processed

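Strand-specific libraries were made from total RNA of the whole pancreas, 1 for each of 16 mice, per the labels' protocols. The submitters' processing notes name STAR 2.6.0b, GRCm38 and DESeq2 (no version). The signal deposited by the authors is a normalized gene count: counts scaled by 1 size factor for each library, 15156 genes in all. Whole reads were recovered from it, since 100% of the values in each library were multiples of 1 step (tolerance 0.01 reads). In MC replicate 3, with a size factor of 0.9894, the step was near 1, and the check could not distinguish whole reads from the values. The counter and the read length are not given in the sources.

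Testing was limited to genes reaching 10 normalized counts in 4 or more libraries. limma 3.58.1 (trend, R 4.3.3) was run on log2 normalized counts with a pseudocount of 1, all 16 libraries in 1 fit with a coefficient per genotype, with Benjamini-Hochberg adjustment within each comparison and a threshold of 0.05. The fit was tested on simulated data. Exact two-sided permutation tests used all 70 assignments of 4 against 4 animals, and correlations used 100000 resamples. Alternatives were other pseudocounts, filters, scalings, spread models and covariates, edgeR 4.0.16 and DESeq2 1.42.0 on recovered reads, and leaving out libraries. A floor of 3 reads is 1.84 to 5.30 normalized counts and covers counting error only. Gene positions came from GENCODE on GRCm38. Upstream sequences came from RefSeq on GRCm38.p6 and matched 6 of 6 members.

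Members and gene lists were chosen with earlier results of these data known. Named were all members, the 8 genes most and the 4 least like the family by Pearson's r, called genes of each list (up to 3 a comparison) and up to 2 of its most abundant members. A gene that this rule names is not reported here. The comparison of MC with DC, the averaged Men1 and Daxx contrasts, the ratios and TATAAA were chosen after values were seen. The labels call the 4 animals of a group independent biological replicates.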

Additional observations from a re-analysis of the deposited data

Results flagged for a closer look

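Reg2 in WT replicate 3, at 2222 normalized counts, lay far from the other WT animals, which had 30463, 33330 and 30677. On the log2 scale its gap to the nearest of them was 0.967 of the range of the group, above Dixon's critical value for a group of 4 at the 95% level. Of 24 groups examined, 6 genes in 4 genotypes, this was the 1 that passed, and chance passes about 1 in 20. The same animal was also the lowest of its genotype for the other members, and its B and plasma cell and T and NK cell levels were the highest in WT, at 9.87 and 7.45 on the log2 scale. The part of these in the low Reg2 value was not tested.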

How the results depend on the processing

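Of the members called, DMC against DC had 1 with the compared groups alone, 2 with library quality weights, 1 without WT replicates 2 and 3, 3 with DESeq2 and 0 to 2 with each library left out in turn. Of all 14220 genes, these settings called 59, 1655, 117, 345 and 14 to 188 in the same order, against 76 in the main fit. MC against DC had 4 members called with the compared groups alone, 2 with weights, 0 with the replicate block, 0 with the Y-linked covariate and 0 to 2 with each library left out. Of all genes, it called 268, 1033, 110, 153 and 49 to 253 in the same order, against 195 in the main fit. For floxed Men1 the members called were 1 with quantile scaling, 1 with a robust fit, 0 with the replicate block, 0 with the Y-linked covariate, 1 without WT replicates 2 and 3, 1 with edgeR and 0 to 3 with each library left out. Of all genes, this contrast called 387, 430, 279, 383, 310, 413 and 243 to 810 in the same order, against 430 in the main fit. Same-numbered animals did not pair (median r -0.028 over 24 pairs, 1 of 16 libraries closest to its own number), and with the replicate block Reg2 in MC against DC had adjusted p = 0.0958. The other comparisons kept 0 members called under the alternatives run. The causes were not tested.

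Some log2 differences turned. Under quantile scaling, Reg1 was 0.11 in DC, 0.45 in MC and 0.37 in DMC, each against WT, -0.09 in DMC against MC, 0.01 for floxed Daxx and -0.20 in the interaction, and Reg2 was -0.14 in the interaction. With edgeR and DESeq2, MC against WT was -0.21 and -0.20 for Reg3a and -0.52 and -0.51 for Reg3g, and floxed Daxx was -0.22 and -0.21 for Reg3g. With quality weights, Reg1 in DMC against MC was -0.13, and the interaction was -0.12 for Reg2 and -0.19 for Reg3d. With covariates the Reg2 interaction was -0.03 (Y-linked) and -0.45 (acinar) and that of Reg3d -0.20 (acinar). Without WT replicates 2 and 3, MC against WT was -0.58 for Reg3a, -0.08 for Reg3d and -0.21 for Reg3g, Reg2 in DMC against WT was -0.08, floxed Men1 was -0.01 for Reg1 and floxed Daxx -0.12 for Reg3g.

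With each library left out, DMC against WT was -0.41 to 0.05 for Reg1, -0.12 to 1.30 for Reg2 and -0.98 to 0.19 for Reg3a, MC against WT -0.46 to 0.72 for Reg3a and -0.37 to 0.99 for Reg3g, DMC against MC -0.23 to 0.23 for Reg1 and -0.10 to 0.67 for Reg3b, the interaction -0.45 to 1.19 for Reg2 and -0.15 to 0.54 for Reg3d, and floxed Daxx -0.20 to 0.48 for Reg3g. The log2 ratio of Reg3g to Reg3a was -0.19 to 0.53 in DC and -0.44 to 0.28 in MC, each against WT. Over all genes, MC against DC called 195 with limma, 500 with DESeq2, 1033 with quality weights and 110 with the replicate block, and DC against WT called 3 with limma and 281 with DESeq2. The interaction with the compared groups alone was not run, since it needs all groups.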
